A study of Homo sapiens with 12 samples.

Results

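The genes described here are those of the NRF2 pathway: NFE2L2, which encodes the transcription factor NRF2, its regulators KEAP1, BACH1, MAFG and SQSTM1, and its stress targets NQO1, OSGIN1, HMOX1, ABCC1 and ABCC3. They were taken by name from the deposited count table, where each of the 10 names matched 1 row, of 63241 genes in all. The libraries came from 2 human glioblastoma cell lines, T98G and U251, and were made from polyadenylated RNA with a kit that kept the strand of origin. There were 4 groups of 3 libraries each: T98G PEPD-OE, in which PEPD was over-expressed, T98G NC, U251 PEPD-OE and U251 NC. PEPD encodes prolidase, a dipeptidase that releases proline. The labels give no vector, no time after its delivery, no meaning for NC and no statement of whether a group came from 1 clone or several cultures, so the p-values below measure the spread between these libraries, which may be technical.

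NRF2 is made continuously and is normally degraded, because the adaptor protein KEAP1 presents it to a ubiquitin ligase. When oxidants or electrophiles modify KEAP1, or when the autophagy receptor p62 (the product of SQSTM1) occupies it, NRF2 accumulates, pairs with a small MAF protein such as MAFG and binds antioxidant response elements, while BACH1 competes for such elements as a heme-sensitive repressor. Targets include quinone reductase, glutathione synthesis and NADPH-making enzymes, and export pumps. The pathway is controlled mostly at the level of NRF2 protein, which these RNA libraries did not measure.

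Library totals ranged from 464056 counts (T98G NC replicate 1) to 924204, with a median of 772232. Levels are given as CPM, counts per 1000000 after TMM scaling of the library sizes, and 3 counts in a library stood for 3.20 to 6.33 CPM. PEPD itself averaged 164 ± 9.50 CPM in T98G PEPD-OE and 11 ± 8.20 CPM in T98G NC, and 175 ± 10.6 CPM in U251 PEPD-OE and 9.55 ± 3.44 CPM in U251 NC (SD, n = 3 each), as the labels have it. Among 12 glial and glioblastoma markers, OLIG2 had 0 counts in all libraries, and the neural stem cell markers SOX2 and NES had at most 1 and 9 counts in a T98G library while averaging 276 and 348 CPM in U251 PEPD-OE and 381 and 370.5 CPM in U251 NC. Of the 8 glial markers tested, 2 (CD44 and EGFR) were called higher and 5 lower in T98G NC than in U251 NC. Replicate 2 of both T98G groups stood apart from the other libraries in genes of white blood cells. PTPRC, which encodes the leukocyte antigen CD45, had 25 counts in T98G PEPD-OE replicate 2 and 35 in T98G NC replicate 2, against 0 to 5 in every other library. The summed level of the 10 macrophage and microglia markers ran from 7.12 to 71.7 CPM in T98G PEPD-OE, 0 to 67.6 CPM in T98G NC, 3.58 to 10.5 CPM in U251 PEPD-OE and 2.56 to 12.9 CPM in U251 NC, and C1QA was at 0 in all. The part of these libraries in the results was not tested beyond leaving both out, and values without them are given where a call changed. Markers of other cell types also moved with PEPD over-expression. The summed level of 8 fibroblast markers was 631 to 768 CPM in T98G PEPD-OE against 308 to 386 CPM in T98G NC, and 351 to 451 CPM in U251 PEPD-OE against 585 to 625 CPM in U251 NC. Of the 4 tested, COL1A2 and PDGFRB rose in T98G and COL1A2 fell in U251, while DCN was at 0 in both T98G groups. The summed level of 7 epithelial markers was 151 to 228 CPM in T98G PEPD-OE against 146 to 190 CPM in T98G NC. Of the 3 tested, CLDN4 rose and KRT8 fell in T98G, and EPCAM was at 0 in all libraries. In U251 the epithelial sum was 89.5 to 194 CPM in PEPD-OE against 135 to 186 CPM in NC, and none of the 3 was called. Of 6 neuron markers only SYT1 was tested, and STMN2 was at 0 in all libraries. SYT1 rose in U251, with 19, 25 and 23 counts in PEPD-OE against 7, 5 and 16 in NC, and was not called in T98G. Of the 8 glial markers, EGFR, SOX9 and VIM fell in T98G, with a summed level over the 12 of 1240 to 1413 CPM in PEPD-OE against 1718 to 1800.1 CPM in NC. In U251, GFAP, SOX2 and VIM fell and EGFR rose, with a summed level of 3333 to 3892 CPM in PEPD-OE against 4756 to 4850 CPM in NC. The part of these cell type markers in the results below was not tested.

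In T98G cells, 7 of the 10 genes rose under PEPD over-expression and none fell. The target genes tested moved most: OSGIN1 was 7.45-fold, ABCC1 3.0-fold, NQO1 2.42-fold and ABCC3 2.22-fold as high in PEPD-OE as in NC. The NQO1 value is of counts under that name, since an antisense gene inside its exons held more (below). MAFG was 2.14-fold, BACH1 1.89-fold and SQSTM1 1.33-fold as high. Counts under NFE2L2 and KEAP1 did not pass the test, and HMOX1 had too few counts to enter it. A call means an adjusted p under 0.05 in edgeR's quasi-likelihood test, with Benjamini-Hochberg adjustment over all 8773 genes tested, and every adjusted p below is from that test unless DESeq2 is named. In this comparison 32.3% of all genes tested were called, 17.7% higher, a background in which many genes changed. The 7 of 10 are a larger share. The 10 genes were chosen with earlier results of these data known, so that excess tests nothing. The T98G groups did not overlap for 8 of the 10 genes, 7 higher and 1 lower, and for 43.5% of all genes tested, 22.6% higher and 20.9% lower. Without both replicate 2 libraries of T98G, 6 of the 10 were called, and BACH1 was the one lost (log2 fold change 0.74, adjusted p = 0.0990).

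**Figure D1:**
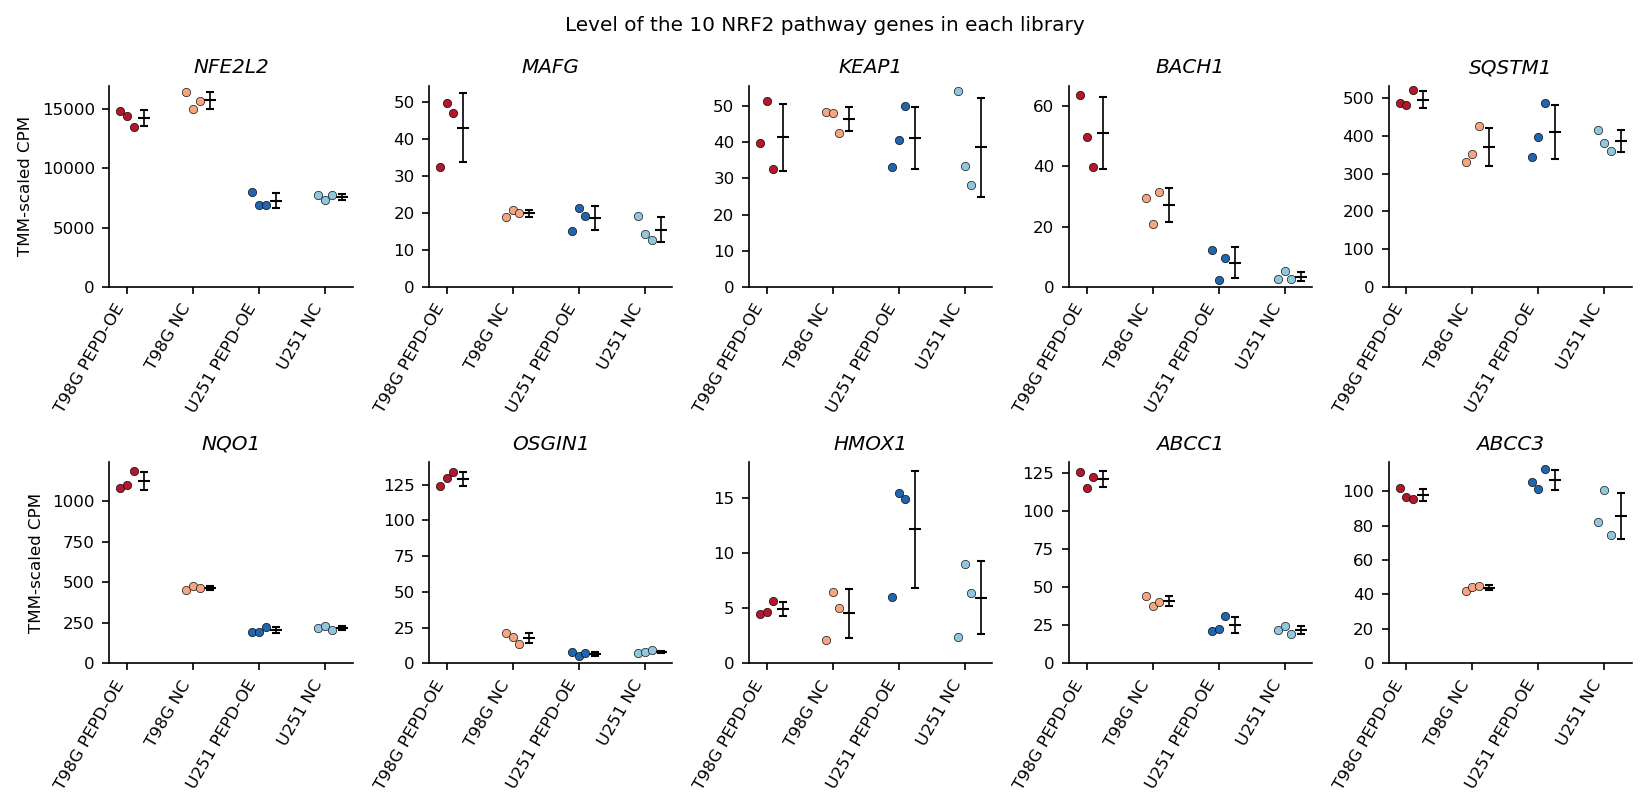
Level of each of the 10 genes in every library, in TMM-scaled CPM on a linear axis from 0 that differs between panels. Points are libraries, and the bar beside them is the mean with its SD (n = 3). The 3 T98G PEPD-OE libraries lie above all T98G NC libraries for MAFG, BACH1, SQSTM1, NQO1, OSGIN1, ABCC1 and ABCC3, and below them for NFE2L2, while the U251 groups overlap for all genes but ABCC3.

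The promoters of 3 of these genes hold the letters of elements that NRF2, BACH1 and small MAF proteins are known to bind, and they are shown because they differ in how the genes moved: OSGIN1 and BACH1 rose in T98G and KEAP1 did not pass the test. RefSeq windows of 250 bases before to 50 after a transcript start (GRCh38.p14) were found for 7 of the 10 genes, 13 windows in all. Both strands were searched for TGACNNNGC, the core of the antioxidant response element, and for TGACTCA, the core shared by AP-1 and MAF sites. The first stood in 13.35% and the second in 4.949% of all 35116 windows. Of the 13 windows of these genes, 1 (7.692%) held the first and 2 (15.38%) the second. Either stood in 3 of the 13 (23.08%), against 17.18% of all windows, a share near the background. Matches are in capitals in the sequences below, which run 5′ to 3′ on the strand of the gene, and positions are those of the leftmost base of the match, counted from the start.
OSGIN1, chr16:83952990-83953289, plus strand, TGACTCA at -97: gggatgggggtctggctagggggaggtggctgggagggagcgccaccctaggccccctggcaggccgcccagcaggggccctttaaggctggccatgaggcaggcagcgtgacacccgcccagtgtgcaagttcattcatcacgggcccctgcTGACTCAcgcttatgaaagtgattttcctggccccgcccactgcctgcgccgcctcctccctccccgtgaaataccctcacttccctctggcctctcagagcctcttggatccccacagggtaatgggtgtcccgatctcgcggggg
BACH1, chr21:29298672-29298971, plus strand, TGACTCA on the other strand (TGAGTCA as printed) at -48: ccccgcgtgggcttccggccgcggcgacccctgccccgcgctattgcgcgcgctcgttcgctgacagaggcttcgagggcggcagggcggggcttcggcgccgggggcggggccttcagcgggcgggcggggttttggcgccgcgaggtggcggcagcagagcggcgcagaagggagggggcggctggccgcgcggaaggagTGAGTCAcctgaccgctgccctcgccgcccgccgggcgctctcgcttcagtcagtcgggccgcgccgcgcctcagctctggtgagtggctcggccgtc
KEAP1, chr19:10502722-10503021, minus strand, TGACNNNGC at -54 and, on the other strand, at -31: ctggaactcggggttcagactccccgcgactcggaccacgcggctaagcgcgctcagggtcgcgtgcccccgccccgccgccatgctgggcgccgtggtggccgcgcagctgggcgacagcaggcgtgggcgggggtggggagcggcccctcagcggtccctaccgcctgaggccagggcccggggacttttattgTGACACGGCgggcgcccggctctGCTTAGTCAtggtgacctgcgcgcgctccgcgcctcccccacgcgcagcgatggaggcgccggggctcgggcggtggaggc
In the 36 windows of other NRF2 target genes, 11 (30.56%) held TGACNNNGC, in 10 of 27 genes, among them GCLM and TXNRD1. The windows of NFE2L2, MAFG, NQO1 and SQSTM1 held neither set of letters, which says nothing of sites farther away. A match is a string of letters and no measured binding.

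NFE2L2 (ENSG00000116044, chromosome 2, 177227595 to 177392697, minus strand, GRCh38, GENCODE 29) held far more counts than the other genes of the set. Its level was 14818, 14424 and 13458 CPM in T98G PEPD-OE, against 16453, 15036 and 15688 CPM in T98G NC. It was 8025, 6941 and 6870.5 CPM in U251 PEPD-OE, against 7723, 7321 and 7738 CPM in U251 NC. All T98G PEPD-OE libraries lay below all T98G NC libraries, by a narrow margin, and the U251 groups overlapped. The log2 fold change was -0.14 (SE 0.06, adjusted p = 0.0603) in T98G, which missed the threshold at an unadjusted p of 0.0203, and -0.06 (SE 0.06, adjusted p = 0.646) in U251. Under upper-quartile scaling the T98G value was -0.19 (adjusted p = 0.0110) and with each line fitted alone -0.17 (adjusted p = 4.21e-04), both past the threshold. It passed too without T98G NC replicate 2 (-0.18, adjusted p = 0.0471), without U251 PEPD-OE replicate 1 (-0.15, adjusted p = 0.0140) and without U251 PEPD-OE replicate 3 (-0.14, adjusted p = 0.0480). Over all alternatives the adjusted p ran from 4.21e-04 to 0.355, always with a negative value.

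With 96310 counts over the 12 libraries, 1.05% of the total, NFE2L2 ranked 6 among the 8773 genes by counts and 23 among the 8604 with an annotated length by counts per kb. On the per-kb scale its T98G PEPD-OE level was 2381 CPM per kb, against 345 for NQO1, 64.9 for SQSTM1, 37.3 for OSGIN1, 16 for ABCC1 and 11 for KEAP1. ABCC3, MAFG, BACH1 and HMOX1 followed at 10.2, 8.26, 6.62 and 2.05 CPM per kb.
In GENCODE 29 its exons share 54 bases with AGPS and 190 with AC079305.1 on the plus strand. These had 608 and 31 counts in all, so the partners the annotation names held few reads. AGPS, an enzyme of ether lipid synthesis, fell in T98G, to 58.7 ± 10.4 CPM in PEPD-OE against 93.7 ± 6.18 CPM in NC (log2 fold change -0.67, SE 0.19, adjusted p = 0.00337). AC079305.1 had 3, 5 and 7 counts in T98G PEPD-OE and 1, 4 and 3 in T98G NC.

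The next gene beyond the 3′ end of NFE2L2 is HNRNPA3, which encodes an RNA-binding protein and lies on the plus strand, so that both transcripts run toward each other. The ends of the 2 genes are 3636 bases apart in GENCODE 29. Neither the annotation release the authors counted on nor its strand setting is known from the labels. HNRNPA3, chosen after its values were seen, had 2901, 2742 and 2631 CPM in T98G PEPD-OE, against 1171, 1089 and 994 CPM in T98G NC, a rise of 1.35 (SE 0.09, adjusted p = 7.19e-31) on the log2 scale. In U251 it averaged 466 ± 43.5 CPM in PEPD-OE and 478 ± 23.2 CPM in NC (log2 fold change -0.04, SE 0.09, adjusted p = 0.882). The 4 groups thus stood in the same order for HNRNPA3 as for NQO1 (below) and in another order for NFE2L2. The ratio of NFE2L2 to HNRNPA3 counts was 5.11 to 5.26 in T98G PEPD-OE, against 13.8 to 15.8 in T98G NC, and it was 13.5 to 18.1 in U251 PEPD-OE, against 14.7 to 17.1 in U251 NC. AC019080.1, which overlaps NFE2L2 on the same strand, also rose in T98G, with 36, 32 and 23 counts in PEPD-OE against 14, 16 and 10 in NC (log2 fold change 1.18, SE 0.30, adjusted p = 9.34e-04). Whether the counts under NFE2L2 are its own transcripts was not tested, and they should be read as counts under that name.

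MAFG, a small MAF protein that pairs with NRF2 on DNA, is encoded on chromosome 17 (ENSG00000197063, chromosome 17, 81918270 to 81927714, minus strand). It had 32.5, 49.9 and 47 CPM in T98G PEPD-OE, against 19, 20.8 and 20.1 CPM in T98G NC. The T98G groups did not overlap, and the rise was 1.10 (SE 0.29, adjusted p = 0.00130) on the log2 scale. In U251 it averaged 18.6 ± 3.26 CPM in PEPD-OE and 15.4 ± 3.40 CPM in NC (log2 fold change 0.28, SE 0.34, adjusted p = 0.719). MAFG-AS1 lies on the other strand and shares 224 exon bases with MAFG. It held 70 counts against 211 for MAFG and was not tested.

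KEAP1 (ENSG00000079999, chromosome 19, 10486120 to 10503741, minus strand) encodes the adaptor that keeps NRF2 low, and it has no opposite-strand exon partner. It had 39.9, 51.4 and 32.8 CPM in T98G PEPD-OE and 48.5, 48.1 and 42.7 CPM in T98G NC. In U251 it had 33.1, 40.6 and 50.2 CPM in PEPD-OE and 54.2, 33.5 and 28.2 CPM in NC. Both pairs of groups overlapped, and all 4 groups did. The log2 fold changes were -0.16 (SE 0.24, adjusted p = 0.655) in T98G and 0.11 (SE 0.23, adjusted p = 0.855) in U251. Each library held only 22 to 47 counts of KEAP1, so a small change was not detectable at this depth.

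BACH1 (ENSG00000156273, chromosome 21, 29194071 to 29630751, plus strand), the heme-sensitive repressor of NRF2 targets, had 63.6, 49.9 and 39.9 CPM in T98G PEPD-OE, against 29.5, 20.8 and 31.4 CPM in T98G NC. All 3 PEPD-OE libraries lay above the NC libraries, and the log2 fold change was 0.91 (SE 0.27, adjusted p = 0.00523). The call was lost with DESeq2 (adjusted p = 0.0517), when T98G PEPD-OE replicate 1 was left out (0.73, adjusted p = 0.0811) and when T98G NC replicate 2 was (0.72, adjusted p = 0.0671). Its adjusted p ran from 0.00309 to 0.0990 over all alternatives. In U251 the counts were 8, 2 and 9 in PEPD-OE and 2, 4 and 2 in NC, near the level of 3 counts. The fitted value of 1.18 (SE 0.59, adjusted p = 0.234) rests on these few reads. GRIK1, which shares 45 exon bases with BACH1 on the other strand, held 60 counts in all against 185.

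SQSTM1 (ENSG00000161011, chromosome 5, 179806398 to 179838078, plus strand) encodes p62, which binds KEAP1 and is itself an NRF2 target. Its level was 487, 481 and 523 CPM in T98G PEPD-OE, against 331, 353 and 427 CPM in T98G NC, a rise of 0.42 (SE 0.11, adjusted p = 0.00164) on the log2 scale. The groups did not overlap, and T98G NC replicate 3 came nearest to the PEPD-OE libraries. In U251 it had 345, 399 and 488 CPM in PEPD-OE and 417, 383 and 359.9 CPM in NC, and the groups overlapped (0.09, SE 0.11, adjusted p = 0.708). SQSTM1 shares 1582 exon bases with MRNIP, a DNA repair gene on the other strand, and 105 with MGAT4B. MRNIP held 3959 counts, about as many as the 3718 of SQSTM1. MRNIP rose as well in T98G, to 569.7 ± 37.6 CPM in PEPD-OE against 411 ± 83.8 CPM in NC (log2 fold change 0.49, SE 0.11, adjusted p = 1.27e-04). MGAT4B, a glycosylation enzyme, also rose (0.70, SE 0.24, adjusted p = 0.0189), but missed the threshold with DESeq2 (adjusted p = 0.0653), when T98G PEPD-OE replicate 3 was left out (0.59, adjusted p = 0.105) and when T98G NC replicate 1 was (0.43, adjusted p = 0.204), with 0.0108 to 0.204 over all alternatives. In U251 the log2 fold changes were -0.06 (SE 0.11, adjusted p = 0.818) for MRNIP and -0.03 (SE 0.24, adjusted p = 0.978) for MGAT4B. How reads in the exon overlap of SQSTM1 and MRNIP were assigned is not known from the labels. Both values should be read as counts under those names.

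NQO1 (ENSG00000181019, chromosome 16, 69706996 to 69726951, minus strand) encodes the quinone reductase often used as a readout of NRF2. It had 1083, 1097 and 1187 CPM in T98G PEPD-OE, against 449, 477 and 463 CPM in T98G NC. The groups lay far apart, and the rise was 1.27 (SE 0.10, adjusted p = 2.37e-23) on the log2 scale. In U251, NQO1 had 193, 193 and 223 CPM in PEPD-OE and 219, 232 and 206 CPM in NC. Those groups overlapped (log2 fold change -0.10, SE 0.12, adjusted p = 0.693). AC092115.2, a noncoding gene on the other strand, lies wholly inside NQO1 exons, with 575 of 575 bases shared, and held 3.09 times the counts of NQO1 and 17.5 times its counts per kb. It had 3585, 3581 and 3879 CPM in T98G PEPD-OE, against 1481, 1454 and 1488 CPM in T98G NC (log2 fold change 1.32, SE 0.08, adjusted p = 1.73e-32). Its level was 562 ± 28.8 CPM in U251 PEPD-OE and 539 ± 18.4 CPM in U251 NC. The 2 genes moved together: the ratio of AC092115.2 to NQO1 counts was 3.26 to 3.31 in T98G PEPD-OE and 3.05 to 3.30 in T98G NC, and 2.38 to 3.04 in U251 PEPD-OE and 2.27 to 2.71 in U251 NC. With both summed, the T98G call stayed, but most of the summed counts are those of AC092115.2, which rose on its own. The sum therefore cannot show that NQO1 rose. Whether the counts under NQO1 are its own transcripts was not tested, and they should be read as counts under that name.

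**Figure D2:**
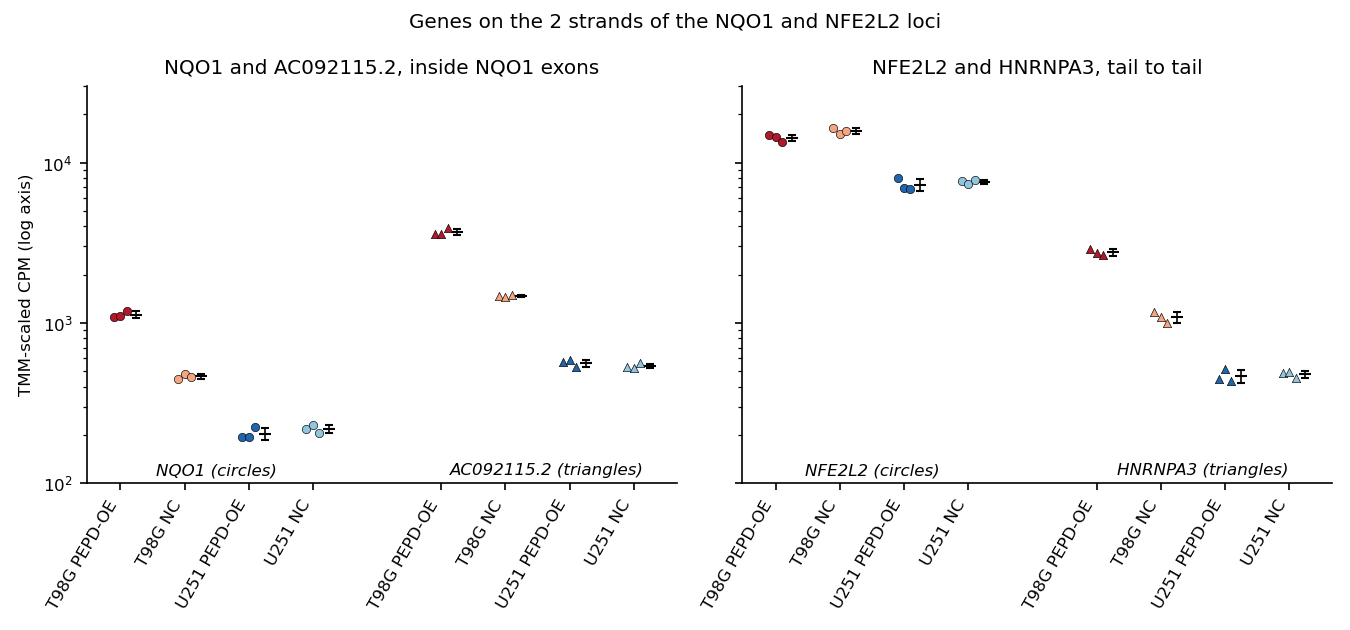
Level in TMM-scaled CPM on a log axis of NQO1 (circles) and AC092115.2 (triangles), left, and of NFE2L2 (circles) and HNRNPA3 (triangles), right, in every library of the 4 groups. The bar beside each group is its mean with the SD (n = 3). AC092115.2 follows NQO1 at about 3 times its counts, while HNRNPA3 is higher in T98G PEPD-OE than in T98G NC and NFE2L2 is not.

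OSGIN1 (ENSG00000140961, chromosome 16, 83948282 to 83966332, plus strand), an oxidative stress-induced growth inhibitor, showed the largest fold in T98G of the 9 genes tested and has no opposite-strand exon partner. It had 84, 83 and 94 counts in T98G PEPD-OE, against 10, 14 and 11 counts in T98G NC, and the log2 fold change was 2.90 (SE 0.24, adjusted p = 1.14e-22). Every T98G PEPD-OE library was far above every library of the other 3 groups. In U251 it had 5, 4 and 7 counts in PEPD-OE and 6, 6 and 7 in NC, below the filter level of 12.9 CPM in every library. The U251 log2 fold change of -0.27 (SE 0.48, adjusted p = 0.824) therefore rests on few reads.

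HMOX1 (ENSG00000100292, chromosome 22, 35380361 to 35394214, plus strand), the heme oxygenase that BACH1 represses, was the one gene of the set below the filter. It had 3, 3 and 4 counts in T98G PEPD-OE and 1, 5 and 4 in T98G NC, a ratio of scaled counts of 1.01 with an exact 95% counting interval of 0.377 to 2.70. In U251 it had 4, 13 and 14 counts in PEPD-OE and 2, 7 and 5 in NC, a ratio of 2.17 (1.12 to 4.41), and the groups overlapped. These intervals cover counting error only, not the spread between libraries. With no filter on low counts, HMOX1 was fitted at 1.08 on the log2 scale in U251 (adjusted p = 0.460), and over the alternatives that fitted it the adjusted p ran from 0.121 to 0.596. HMOX1 passed in neither line under any of them, and a fold of the size seen for NQO1 in T98G lay inside its T98G interval.

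The 2 export pumps have no opposite-strand exon partner. ABCC1 (ENSG00000103222, chromosome 16, 15949577 to 16143074, plus strand), also called MRP1, carries glutathione conjugates out of cells. It had 126, 115 and 123 CPM in T98G PEPD-OE, against 44.3, 37.7 and 40.1 CPM in T98G NC, and the groups were well apart (log2 fold change 1.59, SE 0.20, adjusted p = 7.63e-12). In U251 it averaged 24.9 ± 5.30 CPM in PEPD-OE and 21.8 ± 2.63 CPM in NC (0.22, SE 0.28, adjusted p = 0.740). ABCC3 (ENSG00000108846, chromosome 17, 50634777 to 50692252, plus strand), or MRP3, carries bile salts and glucuronides. It had 102, 96.6 and 95.4 CPM in T98G PEPD-OE, against 42.2, 44.2 and 45.2 CPM in T98G NC (1.15, SE 0.20, adjusted p = 3.64e-07). In U251 it had 105, 101 and 113 CPM in PEPD-OE and 81.9, 100.5 and 74.3 CPM in NC. There the lowest PEPD-OE library lay just above the highest NC library, but the change of 0.32 (SE 0.16, adjusted p = 0.232) did not pass.

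In U251, none of the 10 genes was called, where 8.55% of all genes tested were (4.13% higher and 4.42% lower), in edgeR and in every alternative run, DESeq2 included. At an unadjusted p under 0.05, 2 had passed, ABCC3 and BACH1. The U251 groups did not overlap for 1 of the 10, ABCC3, and for 22.4% of all genes, 11.4% higher and 11% lower. The PEPD increase itself had a difference between the lines of -0.12 (SE 0.47, adjusted p = 0.886). Whether the changes differed between the lines was tested directly, as the T98G change minus the U251 change. In that comparison 27.7% of all genes were called, and 4 of the 10 were, all more positive in T98G, as 14.1% of all genes were (13.6% were more negative). NQO1 differed by 1.38 (SE 0.15, adjusted p = 7.27e-14), ABCC1 by 1.37 (SE 0.35, adjusted p = 0.00124) and ABCC3 by 0.83 (SE 0.26, adjusted p = 0.00807). OSGIN1 differed by 3.17 (SE 0.57, adjusted p = 1.95e-06), but it entered the test through its T98G libraries alone. It had 4 to 7 counts in each U251 library, so its place among the 4 is no support and the size gives no rank. For the regulators the difference was not shown. It was 0.82 (SE 0.45, adjusted p = 0.174) for MAFG, 0.32 (SE 0.16, adjusted p = 0.119) for SQSTM1 and -0.27 (SE 0.61, adjusted p = 0.794) for BACH1. NFE2L2 (-0.08, SE 0.09, adjusted p = 0.526) and KEAP1 (-0.28, SE 0.34, adjusted p = 0.592) did not pass either. SQSTM1 passed when summed with its opposite-strand partners (0.45, adjusted p = 0.00412) and without U251 PEPD-OE replicate 3 (0.47, adjusted p = 0.0201), with an adjusted p of 0.00412 to 0.327 over all alternatives. MRNIP, a partner in that sum, differed by 0.55 (SE 0.15, adjusted p = 0.00303) on its own, so the sum cannot speak for SQSTM1.

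**Figure D3:**
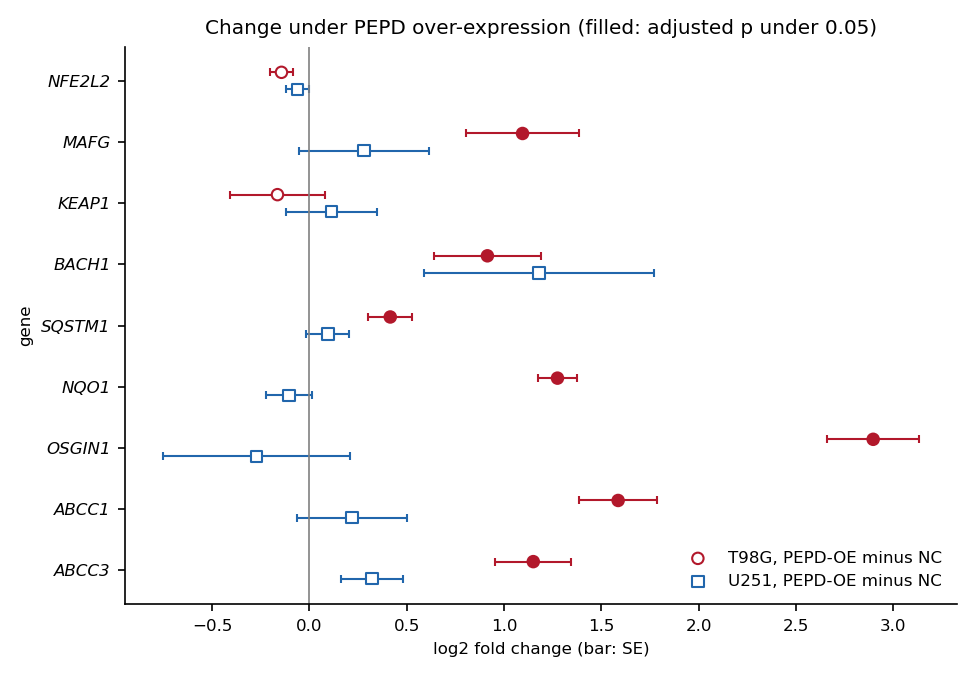
Log2 fold change, PEPD-OE minus NC, with its SE for the 9 genes tested, in T98G (circles) and U251 (squares). Filled symbols passed an adjusted p of 0.05 in edgeR's quasi-likelihood test. In T98G 7 genes are filled, from SQSTM1 at 0.42 to OSGIN1 at 2.90, and in U251 none is.

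The 2 lines also differed without PEPD over-expression. Between the NC groups, T98G NC was higher than U251 NC for BACH1 (2.95, SE 0.46, adjusted p = 1.69e-08), OSGIN1 (1.10, SE 0.40, adjusted p = 0.0174), NQO1 (1.08, SE 0.11, adjusted p = 1.64e-16), NFE2L2 (1.05, SE 0.06, adjusted p = 2.46e-35) and ABCC1 (0.88, SE 0.27, adjusted p = 0.00359). It was lower for ABCC3 (-0.95, SE 0.20, adjusted p = 1.49e-05). That is 6 of the 10, where 48.7% of all genes were called between the NC groups, 24.4% higher and 24.3% lower in T98G NC, so the share is near the background. BACH1 and OSGIN1 entered the test through their T98G libraries alone, with no U251 library over the filter level, so a difference between the lines was built into their selection and its size rests on few U251 counts. The OSGIN1 call was lost when T98G NC replicate 1 (0.99, adjusted p = 0.0565), T98G NC replicate 2 (1.05, adjusted p = 0.0590) or U251 NC replicate 1 was left out (1.02, adjusted p = 0.0561), and when both T98G replicate 2 libraries were (1.05, adjusted p = 0.0618), with 0.0154 to 0.0618 over all alternatives. KEAP1, MAFG and SQSTM1 did not pass.
Between the PEPD-OE groups, 7 of the 10 were higher in T98G PEPD-OE than in U251 PEPD-OE and none of those tested was lower, with 52.6% of all genes called, 26.3% higher and 26.3% lower. The difference was 2.46 (SE 0.11, adjusted p = 2.80e-49) for NQO1 and 2.25 (SE 0.21, adjusted p = 2.14e-19) for ABCC1. It was 4.26 (SE 0.27, adjusted p = 4.05e-32) for OSGIN1 and 2.68 (SE 0.34, adjusted p = 4.16e-12) for BACH1, where the same limit of few U251 counts holds and the size gives no rank. MAFG (1.19, SE 0.28, adjusted p = 1.47e-04) and NFE2L2 (0.97, SE 0.06, adjusted p = 3.66e-32) also passed. SQSTM1 passed (0.27, SE 0.11, adjusted p = 0.0308), but its groups overlapped and the call was lost in 7 of 21 alternatives, among them DESeq2 (0.29, adjusted p = 0.0507) and the fit without U251 PEPD-OE replicate 1 (0.15, adjusted p = 0.255). It was lost too without U251 PEPD-OE replicate 2 (0.24, adjusted p = 0.104) and without T98G PEPD-OE replicate 3 (0.23, adjusted p = 0.119), with 1.34e-04 to 0.255 over all alternatives. ABCC3 had been lower in T98G NC than in U251 NC, and here its difference was -0.13 (SE 0.16, adjusted p = 0.536). HMOX1, which was not tested in the main fit, had 10 counts in T98G PEPD-OE and 31 in U251 PEPD-OE. In the 13 alternatives that fitted it, it was lower in T98G PEPD-OE, by -1.60 to -1.24 on the log2 scale. The adjusted p ran from 0.0144 to 0.105 and was under 0.05 in most of them, on these few counts.

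Ordered by level, OSGIN1 and NQO1 ran from T98G PEPD-OE over T98G NC and U251 NC to U251 PEPD-OE, and the 2 U251 groups overlapped. ABCC1 and BACH1 had the same order but with U251 PEPD-OE above U251 NC, again overlapping. For MAFG the one clear step was between T98G PEPD-OE and the other 3 groups, since each later neighbour overlapped. NFE2L2 was the exception among the genes higher in T98G: T98G NC came first, then T98G PEPD-OE, U251 NC and U251 PEPD-OE. For ABCC3 the order was U251 PEPD-OE, T98G PEPD-OE, U251 NC and T98G NC, and only T98G NC stood clear of its neighbour. KEAP1, SQSTM1 and HMOX1 had no neighbouring groups without overlap. Over all genes tested, the NC groups of the lines did not overlap for 55.1%, 27.7% higher and 27.4% lower in T98G NC. The PEPD-OE groups did not overlap for 55.9%, 27.6% higher and 28.3% lower in T98G PEPD-OE.

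Other genes of the pathway were set against the same background, in T98G 17.7% of all genes tested higher and 14.7% lower. The lists too were chosen with earlier results of these data known, so a share above it tests nothing. Of 36 other NRF2 target genes, which stood in 38 rows, 29 could be tested. In T98G, 26 rose, none fell, also at an unadjusted p under 0.05, and 3 (CBR1, SLC7A11 and TXN) did not pass, with a median log2 fold change of 1.47 against 0 over all genes tested. DESeq2 called 23 there, all higher. AKR1C2, AKR1C1 and AKR1C3, aldo-keto reductases that reduce steroids and reactive carbonyls, changed by 3.22 (SE 0.14), 3.20 (SE 0.14) and 2.60 (SE 0.24) on the log2 scale. Their near-identical sequences leave the split of reads among them uncertain. AKR1B10, a related reductase, averaged 398 ± 12.1 CPM in T98G PEPD-OE and 50.4 ± 3.54 CPM in T98G NC (2.96, SE 0.16, adjusted p = 1.00e-39). In U251, 7 of the 29 passed, 3 higher and 4 lower, where 8.55% of all genes tested were called, 4.13% higher and 4.42% lower. The median was -0.03 against 0.00167 over all genes. Those higher were GCLC (0.81, SE 0.23, adjusted p = 0.0131), the catalytic subunit for glutathione synthesis, TXNRD1 (0.77, SE 0.12, adjusted p = 1.46e-07), thioredoxin reductase, and SLC7A11 (0.67, SE 0.19, adjusted p = 0.0128), the cystine importer. FTL and FTH1, the ferritin chains, and TKT, a transketolase, were among those lower, FTL with 365, 458 and 611 CPM in U251 PEPD-OE against 746, 694 and 763 CPM in U251 NC (-0.61, SE 0.10, adjusted p = 1.97e-06).
SLC7A11 was thus a target that rose in U251 and did not pass in T98G, where its level was 112 ± 23.9 CPM in PEPD-OE and 113 ± 16.8 CPM in NC. The difference between the lines was -0.70 (SE 0.25, adjusted p = 0.0261). The U251 calls of SLC7A11 and GCLC rest on few libraries: without U251 NC replicate 1 they were 0.50 (adjusted p = 0.176) and 0.74 (adjusted p = 0.0793), and without U251 PEPD-OE replicate 2 they were 0.60 (adjusted p = 0.0838) and 0.74 (adjusted p = 0.0734). Their adjusted p ran from 0.0101 to 0.176 and from 0.0130 to 0.0793 over all alternatives. SLC7A11 lost its call with DESeq2 as well (0.64, adjusted p = 0.0575). Both have an antisense partner, SLC7A11-AS1 with 4473 counts against 774, and GCLC-AS1 with 1219 against 962. In the test of the difference between the lines, 17 of the 29 were called more positive in T98G and 1, SLC7A11, was called more negative. The medians were 1.44 in the list and -0.02 over all genes.

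**Figure D4:**
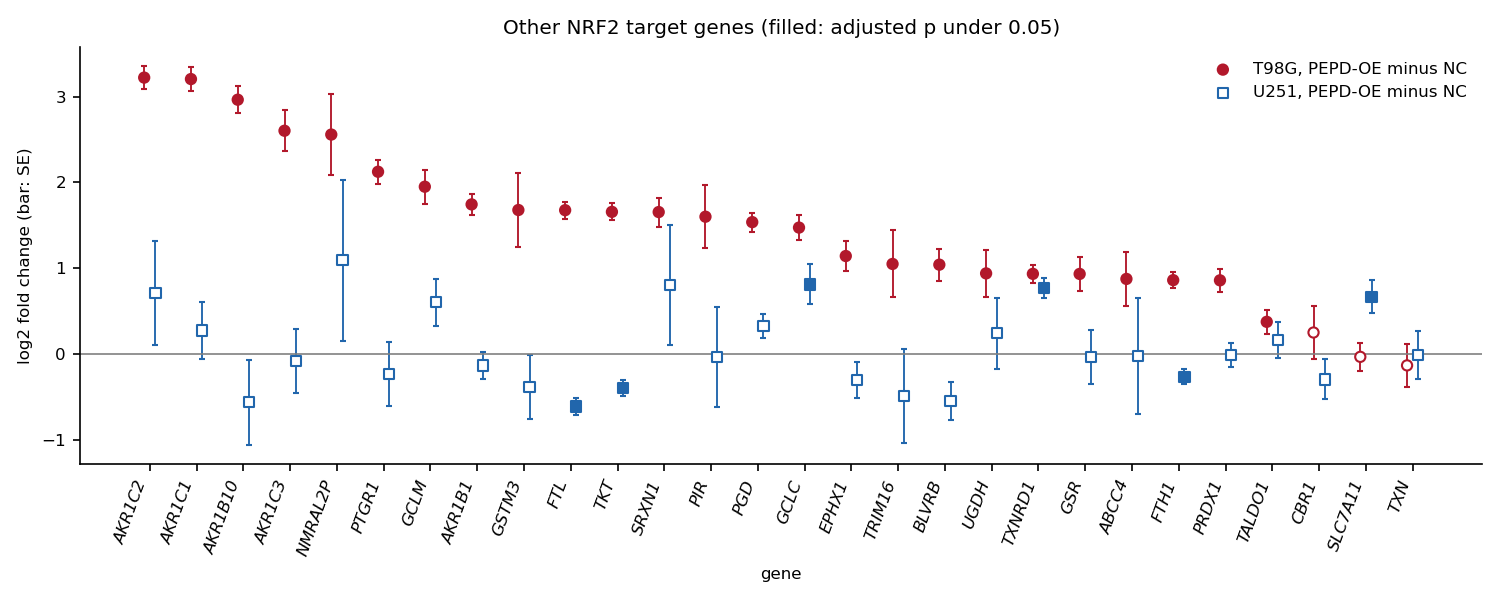
Log2 fold change, PEPD-OE minus NC, with its SE for 28 of the 29 other NRF2 target genes tested, ordered by the T98G value, in T98G (circles) and U251 (squares). Filled symbols passed an adjusted p of 0.05. In T98G 25 of the plotted genes are filled, all above 0, and in U251 there are 3 above and 3 below.

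Of 20 other partners and regulators of NRF2, 16 were tested, and in T98G 1 rose and 3 fell, with a median of -0.12. These 4 of 16 are a smaller share than the 32.3% called over all genes. MAFK, a second small MAF protein, rose to 52 ± 0.668 CPM in PEPD-OE against 27.1 ± 4.31 CPM in NC (0.94, SE 0.26, adjusted p = 0.00178), and TMEM184A on its other strand held 3251 counts against 354. NFE2L3, a relative of NRF2, fell (-0.52, SE 0.14, adjusted p = 0.00131), a call lost without both T98G replicate 2 libraries (-0.45, adjusted p = 0.0529), with 5.54e-05 to 0.0529 over all alternatives. TRIM21, a ubiquitin ligase that binds p62, had 3, 3 and 3 counts in T98G PEPD-OE against 9, 13 and 12 in T98G NC (-1.87, SE 0.52, adjusted p = 0.00250). CREBBP, a coactivator that acetylates NRF2, fell (-0.78, SE 0.22, adjusted p = 0.00292), but did not pass with T98G PEPD-OE replicate 1 left out (-0.61, adjusted p = 0.0525), with 6.82e-05 to 0.0525 over all alternatives. In U251 none of the 16 was called by edgeR or DESeq2, where edgeR gave 4 higher and 1 lower at an unadjusted p under 0.05. Without U251 PEPD-OE replicate 2, edgeR called 1 there.

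Around HMOX1, the genes of heme breakdown and supply gave 5 higher and none lower of 12 tested in T98G, with a median of 0.65. Over all genes tested, 17.7% were called higher there and 14.7% lower. At an unadjusted p under 0.05, 7 of the 12 were higher and 2 lower. Of the 5 called, FTL, FTH1 and BLVRB also stand among the other NRF2 targets above. FTL, the ferritin light chain, had 2010.1, 2138 and 2208 CPM in T98G PEPD-OE against 648, 709 and 629.7 CPM in T98G NC (1.68, SE 0.10, adjusted p = 6.08e-30). FTH1, the heavy chain, changed by 0.86 (SE 0.09, adjusted p = 1.44e-15), with 486557 counts under BEST1 on its other strand against 10068. Both ferritin genes also have many processed pseudogenes, which makes their counts uncertain. FTH1, like SLC7A11, GCLC and MAFK above, held fewer counts than its partner on the other strand. Whether the counts under these names are their own transcripts was not tested, and they too should be read as counts under those names. The biliverdin reductases BLVRB (1.04, SE 0.19, adjusted p = 1.04e-06) and BLVRA (1.23, SE 0.39, adjusted p = 0.00811) rose too. The BLVRA call was lost with DESeq2 (adjusted p = 0.0575) and without T98G PEPD-OE replicate 1 (0.93, adjusted p = 0.137), with 0.00186 to 0.137 over all alternatives. The remaining gene was ALAS1, the first enzyme of heme synthesis. In U251, FTL and FTH1 were lower, 2 of the 12, where 4.42% of all genes tested were called lower. No gene of the list was higher, nor was any at an unadjusted p under 0.05, where 3 were lower. FTH1 there had -0.26 (SE 0.09, adjusted p = 0.0401), a call lost in 11 of 22 alternatives, among them the fits without T98G PEPD-OE replicate 3, T98G NC replicate 3, U251 PEPD-OE replicate 1, any 1 of the U251 NC libraries or both T98G replicate 2 libraries (-0.28 to -0.15), with 0.0183 to 0.318 over all of them.
Of 9 other ABCC transporters 3 passed the filter. ABCC4, an exporter of cyclic nucleotides that is also among the other NRF2 targets, rose in T98G (0.88, SE 0.32, adjusted p = 0.0237), which was lost with DESeq2 (adjusted p = 0.118), with no filter on low counts (0.87, adjusted p = 0.0596), when T98G PEPD-OE replicate 3 was left out (0.73, adjusted p = 0.136) when T98G NC replicate 2 was (0.69, adjusted p = 0.149) and when both T98G replicate 2 libraries were (0.71, adjusted p = 0.188), with 0.0152 to 0.188 over all alternatives. Of 10 other autophagy receptors and LC3 proteins tested, GABARAPL1 (1.05, SE 0.26, adjusted p = 4.95e-04) and NBR1 (0.69, SE 0.19, adjusted p = 0.00179) rose in T98G, a share near the 17.7% of all genes called higher there. In U251 none was called by edgeR or DESeq2, nor by edgeR at an unadjusted p under 0.05. GABARAPL1 belongs to the LC3 proteins of the autophagosome, and NBR1 is a receptor related to p62. On the other strand NBR1 has AC060780.1, with 323 counts against 696, and GABARAPL1 has GABARAPL1-AS1, with 9 against 281.

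Genes with the pattern most like each member across the 12 libraries were ranked by Pearson's r of log2 CPM, as a description without a test, since these libraries form 4 groups and share their group differences. NQO1 was most like SPIDR (r = 0.995), a DNA repair scaffold gene, and AKR1B1 (r = 0.994), which encodes aldose reductase. For OSGIN1 they were NFAT5 (r = 0.994), an osmotic stress factor, and TUT1 (r = 0.990). ABCC1 came closest to AKR1C1 (r = 0.986) and TUT1 (r = 0.986), ABCC3 to VTI1B (r = 0.961) and DOT1L (r = 0.950). The nearest to NFE2L2 were RNF169 (r = 0.996) and COL7A1 (r = 0.992), and to BACH1 PTPN14 (r = 0.977) and AC098484.4 (r = 0.975). MAFG went with LINC00334 (r = 0.952) and NAMPTP1 (r = 0.949). KEAP1, with CHTF18 at 0.862 and DPP3 at 0.811, and SQSTM1, with PLCB3 at 0.859 and KCNAB2 at 0.857, had no close match. NFAT5 is also the tail-to-tail neighbour of NQO1, on the plus strand of chromosome 16, with 2329 bases between their ends. Looked at for that reason, it averaged 355 ± 9.59 CPM in T98G PEPD-OE and 116 ± 5.59 CPM in T98G NC (1.62, SE 0.14, adjusted p = 2.18e-21), and 69.4 ± 15.6 CPM in U251 PEPD-OE and 74.1 ± 6.87 CPM in U251 NC (-0.12, SE 0.18, adjusted p = 0.788). It held 1296 counts in all, 0.306 of those under NQO1.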

How the data were processed

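RNA from T98G and U251 cells was sequenced as strand-marked paired-end libraries, per the labels' protocols. Build GRCh38, FastQC, fastp, HISAT2, Subread and featureCounts stand in the submitters' processing notes without versions. No label states the annotation release or whether counting used the strand. The authors deposited raw counts per gene with gene names, not normalized, and columns were matched to samples by library name.

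Counts were tested in R 4.3.3 with edgeR 4.0.16 (filterByExpr with a minimum count of 10, TMM, robust quasi-likelihood, 1 mean per group over all 12 libraries, 8 residual degrees of freedom), two-sided. An SE is the log2 fold change over the square root of F, and it can lie below counting error at few counts. Single values had no test of their own, since 3 libraries against 3 cannot give an exact p below 0.1. Levels are mean ± SD (n = 3). The code was tested on simulated data.

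Positions, strands and exons came from GENCODE 29, which held 58228 of the identifiers (92.1%). Exons of 52.2% of the genes tested, and of 50% of the members, overlapped an exon on the other strand. Promoter sequences are RefSeq's.

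The members and gene lists were chosen with earlier results of these data known. Named were all members and their opposite-strand partners, of each list the 4 called genes with the largest change per line, and the 2 genes most correlated with each member. HNRNPA3, AC019080.1 and NFAT5, as well as TXN, CBR1, TKT, ALAS1, GCLM and the cell type markers given, were chosen after their values were seen. One gene of the NRF2 target list enters the counts but is not reported here by name.

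No 2 libraries agreed within sampling noise. Alternatives were DESeq2 1.42.0, upper-quartile and RLE scaling, 2 other filters, robust estimation off, each line alone, a replicate block, genes without opposite-strand overlap, members summed with their partners, each library left out, and, added after the data were seen, both T98G replicate 2 libraries left out.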

Additional observations from a re-analysis of the deposited data

Results flagged for a closer look

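The change under PEPD over-expression differed between T98G and U251, by the test of the difference itself, for 4 of the 10 genes and for the related genes given here, which are not all those that differed. Values are the T98G change minus the U251 change on the log2 scale (edgeR, adjusted p under 0.05 for each). They were 3.17 for OSGIN1, 1.38 for NQO1, 1.37 for ABCC1 and 0.83 for ABCC3. Among partners and neighbours of the members they were 1.74 for NFAT5, 1.26 for AC092115.2, 1.39 for HNRNPA3, 3.29 for AC019080.1, 0.55 for MRNIP and -0.85 for AGPS. The aldo-keto reductases differed by 3.52 for AKR1B10, 2.93 for AKR1C1, 2.68 for AKR1C3 and 2.51 for AKR1C2. Ferritin and biliverdin reductase genes differed by 2.29 for FTL, 1.13 for FTH1, 2.31 for BLVRA and 1.59 for BLVRB. AKR1B1, GCLM and TKT differed by 1.88, 1.35 and 2.05. The remaining values were 1.07 for MAFK, 1.39 for GABARAPL1, 0.94 for NBR1, -0.62 for NFE2L3, -1.19 for CREBBP and -0.70 for SLC7A11. SLC7A11 was the one gene of the NRF2 target list called with a change more positive in U251. The AC019080.1 value rests on 0 to 5 counts in each U251 library. Those of OSGIN1 rest on 4 to 7, of AKR1C2 on 1 to 9, and of AKR1B10 and BLVRA on 2 to 8. None of these genes was over the filter level in a U251 library, so T98G libraries alone brought them into the test. The sizes of their differences give no rank. The calls of MRNIP (0.41, adjusted p = 0.0569 without T98G NC replicate 2, 3.41e-04 to 0.0569 over all alternatives) and AGPS (0.00450 to 0.0721 over all alternatives) were lost in some settings, AGPS without U251 PEPD-OE replicate 2 (-0.70), without U251 NC replicate 3 (-0.70) and with DESeq2 (-0.82).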

How the results depend on the processing

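The T98G rises of OSGIN1, NQO1, ABCC1, ABCC3, MAFG and SQSTM1 passed under every alternative that fitted them. For NQO1, SQSTM1 and MAFG these include the sum with partners, which cannot speak for NQO1 or SQSTM1 itself. The fit of genes without opposite-strand overlap did not hold these genes, so no alternative checked their rises against that overlap. The members called numbered 3 to 8 of 10 in T98G, 0 in U251, 3 to 5 for the difference between lines, 3 to 6 between the NC groups and 2 to 8 between the PEPD-OE groups. The lowest values came from the fit of genes without opposite-strand overlap, which holds 4 of the members tested and gave 3 in T98G, 3 between the NC groups and 2 between the PEPD-OE groups. That fit, on fewer genes, called 1140 genes in T98G, 245 in U251, 917 for the difference, 1843 between the NC groups and 2043 between the PEPD-OE groups, with 17 and 3 other NRF2 targets called in T98G and U251, 1 heme gene in U251 and 0 autophagy genes in T98G. With DESeq2, 415 genes were called in U251 against 750, of which 38.1% were higher against 48.3% with edgeR, and in T98G 3 heme genes and 0 ABCC transporters. A filter of 1 CPM in 3 libraries gave 2 ABCC transporters in T98G. Heme genes called in U251 numbered 1 in place of 2 with either other filter, with robust estimation off, with each line alone and without both T98G replicate 2 libraries, which also left 0 ABCC transporters in T98G. The cause of these shifts was not tested.

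Leaving out 1 library gave 440 to 742 genes in U251, 4 to 8 other NRF2 targets, 0 to 1 regulators and 1 to 3 heme genes there, and in T98G 3 to 5 heme genes and 0 to 1 ABCC transporters. The lowest U251 gene counts were 440 without U251 PEPD-OE replicate 2, 442 without U251 NC replicate 3 and 449 without U251 NC replicate 1. Same-numbered PEPD-OE and NC libraries did not deviate together (correlations of -0.04 to 0.06), below the 0.1 set for pairs, although replicate 2 of both T98G groups shared counts under white blood cell genes. With the replicate number as a block, 2793 genes were called in T98G and 757 in U251, the members called stayed at 7, 0, 4, 6 and 7 over the 5 comparisons, and no call changed among the single genes followed through the alternatives.

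Signs turned only in values that had not passed. With partners summed, NQO1 in U251 was 0.014 and the line difference of BACH1 0.092, and KEAP1 between the PEPD-OE groups was 0.00470 with DESeq2. Leaving out 1 library gave the following log2 ranges, each with the libraries whose absence turned the sign. KEAP1 ran from -0.066 to 0.44 in U251 (PEPD-OE or NC replicate 3 of U251) and from -0.21 to 0.14 between the PEPD-OE groups (PEPD-OE replicate 3 of either line). BACH1 ran from -0.70 to 0.055 for the line difference (U251 PEPD-OE replicate 1). SQSTM1 ran from -0.054 to 0.20 in U251 (U251 PEPD-OE replicate 3) and from -0.17 to 0.011 between the NC groups (T98G NC replicate 1). In U251, MGAT4B ran from -0.16 to 0.16 (PEPD-OE replicates 2 and 3, NC replicate 2) and HNRNPA3 from -0.12 to 0.0080 (PEPD-OE replicate 3). KEAP1, HMOX1 and, in U251, BACH1 and OSGIN1 rest on few counts at this depth.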
